A study of Mus musculus with 9 samples.

Results

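The collagen genes of the mouse cochlea were taken as all protein-coding genes whose symbol has the form Col, a number, a and a number. There were 44 of them among the 51912 genes listed for each wild-type and heterozygous library, found by Ensembl identifier. RNA-seq was done on cochleae at postnatal day 3, with 3 libraries in each of 3 groups. By sample title, WT libraries are Pou4f3(+/+), HET libraries are Pou4f3(Δ/+) and HOM libraries are Pou4f3(Δ/Δ). The Pou4f3 protein is a hair cell transcription factor, and the labels do not say what the Δ allele removes or in which cells. No other allele or agent is named for any group, and the series text describes the WT mice as littermates of the HET mice. The genotype characteristic of every sample names another genotype than its title, so each direction below rests on the titles. Values are FPKM, fragments scaled to gene length and library depth.

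Each HOM library listed 1137 genes, and all of them (100%) had the 3 HOM libraries wholly above or wholly below the 3 WT libraries. Col4a4 was the only collagen gene listed in HOM; the other 43 are not listed there, which is not a value of 0, and were not analysed in HOM. Of the 15391 genes expressed well enough to be tested in HET and WT, 7.35% were listed in HOM, against 1 of the 38 collagen genes tested (2.63%). Recovered depth lay between 14.3 M and 17.4 M fragments per library. Pou4f3 itself was at 25.5 ± 1.31 FPKM in WT, 23.8 ± 1.94 in HET and 5.56 ± 4.03 in HOM (mean ± SD, n = 3 each). In HOM against WT the exact permutation test of Pou4f3 gave p = 0.1 (two-sided), the smallest possible with 3 against 3 libraries. In HET against WT the exact permutation test of Pou4f3 gave p = 0.4 (two-sided, n = 3 each). The HET mean of Pou4f3 was 93.5% of WT, and the HET and WT libraries overlapped. The level of Pou4f3 therefore cannot check which libraries are HET and which are WT. On the first principal component of WT and HET, which held 58.1% of the variance, HET 1 and WT 3 lay away from the remaining 4 libraries.

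Collagens are the main structural proteins of the extracellular matrix. Their alpha chains share repeats of glycine followed by 2 other residues, and chains of 1 or several kinds wind into a helix before secretion. Fibrillar collagens form the fibres of cartilage, bone and connective tissue, and FACIT collagens sit on the surface of those fibres. Type IV chains build the sheet of basement membranes, and type VI chains build fine microfibrils around cells. In the inner ear, types II, IX and XI are known from the tectorial membrane, the gel that lies over the hair cells, and from the otic capsule. Changes in genes of types II, IV, IX and XI are known causes of human hearing loss.

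The type IV chains are encoded by pairs of genes that face away from each other, and the DNA between the paired starts is shown because the chains of a pair are compared below. In GRCm38, Col4a4 (minus strand) and Col4a3 (plus strand) lie on chromosome 1 with 71 bases between their starts, at chr1:82586850-82586920. Col4a6 and Col4a5 lie on the X chromosome with 1308 bases between them. Col4a1 and Col4a2 lie on chromosome 8 and their annotated first exons overlap by 22 bases, so no intergenic sequence is given for that pair. The sequences below are from RefSeq promoter windows on GRCm38.p6, read 5′ to 3′ on the strand of the first gene named, outside annotated exons, with matches to GGGCGG on either strand in capitals. The Col4a5 stretch is chrX:141475169-141475384 and the Col4a6 stretch is chrX:141474077-141474326.
Col4a4 to Col4a3: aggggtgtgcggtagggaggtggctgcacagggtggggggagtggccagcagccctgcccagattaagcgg
Col4a5 upstream: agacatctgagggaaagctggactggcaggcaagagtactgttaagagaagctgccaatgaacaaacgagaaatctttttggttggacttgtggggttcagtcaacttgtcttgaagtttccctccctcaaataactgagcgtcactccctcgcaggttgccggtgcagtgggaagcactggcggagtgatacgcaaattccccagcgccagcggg
Col4a6 upstream: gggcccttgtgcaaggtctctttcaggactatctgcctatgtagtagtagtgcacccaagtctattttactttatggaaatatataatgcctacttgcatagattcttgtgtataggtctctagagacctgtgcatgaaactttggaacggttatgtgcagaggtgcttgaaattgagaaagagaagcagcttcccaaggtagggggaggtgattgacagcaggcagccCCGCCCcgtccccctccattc

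The 71 bases between Col4a4 and Col4a3 were 69.0% G or C, and none of the 3 motifs counted here (TATAAA; the box CCAAT; the box GGGCGG) was found on either strand. The Col4a5 stretch of 216 bases held 1 CCAAT match and the Col4a6 stretch of 250 bases held 1 GGGCGG match. RefSeq windows from 250 bases before to 50 bases after the start were found for 35 of the 44 genes, 38 windows in all. GGGCGG, the core of the GC box bound by Sp1-type factors, was present in 23 of these windows (60.5%) and in 35.7% of all 32851 windows. The member windows also had a higher median G and C content, 59.8% against 52.7%. CCAAT was present in 34.2% of member windows and 37.4% of all windows, and TATAAA in 13.2% and 13.6%. A match is a description of the sequence, not a binding site.

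The collagen message of the cochlea was dominated by the chains of types II and IX. The 44 genes together summed in WT to 3982 ± 122 FPKM and in HET to 3778 ± 275 (mean ± SD, n = 3 each), between 1.27% and 1.42% of the summed FPKM of a library. Col2a1 alone made up 30.03% of the WT sum, and the 5 highest genes made up 79.5%. In WT, 7 genes had a mean of at least 100 FPKM, 14 lay between 10 and 100, 17 between 1 and 10, and 6 under 1. When the genes were ordered by mean WT level, 27 of the 43 neighbouring pairs overlapped in their WT libraries. Near the top the order was clearer, with 8 of the first 10 neighbouring pairs not overlapping; Col9a1 and Col9a3, and Col11a1 and Col3a1, overlapped.

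**Figure D1:**
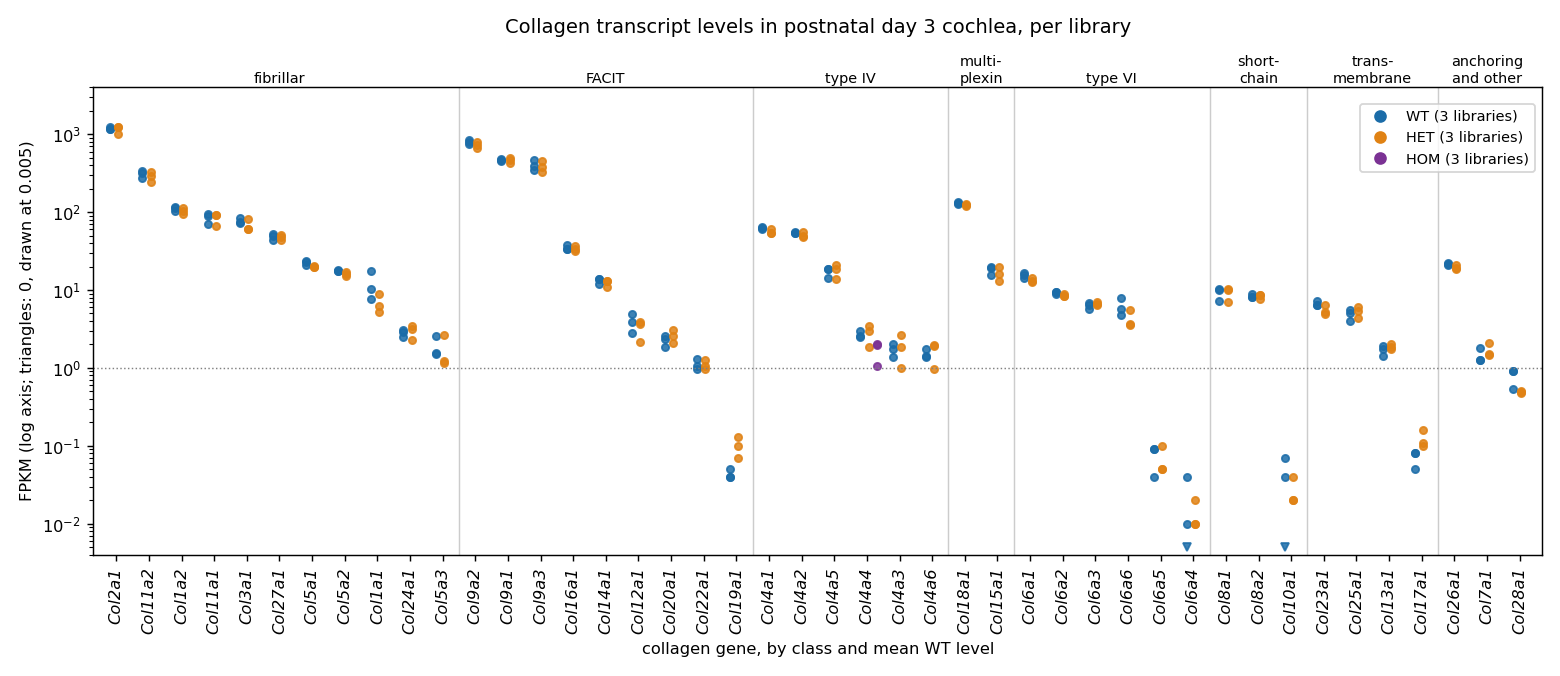
FPKM (log axis) of each of the 44 collagen genes in each library, grouped by structural class; each point is a library, and the dotted line marks 1 FPKM. Col2a1 lies between 1007 and 1249 FPKM in the 6 WT and HET libraries, the 3 type IX genes lie between 332 and 844, and 6 genes average below 1 in WT.

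The fibrillar class, of 11 genes, summed to 1886 ± 13.2 FPKM in WT and 1790 ± 144 in HET. Col2a1, the chain of type II collagen, had 1162, 1177 and 1249 FPKM in WT (replicates 1, 2 and 3, an order kept below) and 1235, 1007 and 1226 in HET. The groups overlapped, and HET 2 was the lowest library. Col11a2 and Col11a1 encode type XI chains, which assemble with type II collagen inside thin fibrils. Col11a2 was at 341, 318 and 277 FPKM in WT and at 240, 287 and 323 in HET. Col11a1 was at 95.8, 88.9 and 70.7 FPKM in WT and at 67.1, 91.6 and 90.7 in HET. For both type XI genes WT 3 and HET 1 were the lowest libraries, the reverse of Col2a1, where they were the highest.

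Chains of type I and III, the collagens of bone, vessel wall and connective tissue, were lower than type II. Col1a2 was at 103, 116 and 114 FPKM in WT and at 114, 93.5 and 104 in HET. Col1a1, whose chain is known to be used at 2 copies for each Col1a2 chain, was at 7.72, 17.6 and 10.4 FPKM in WT and at 8.84, 5.26 and 6.29 in HET. The level of Col1a1 was thus far below that of Col1a2 in every library. Whether the authors' counting lowered Col1a1 was not tested, since that needs the reads, and its level and ratio carry that doubt. Col3a1 was at 71.6, 75.4 and 83.7 FPKM in WT and at 81.4, 60.8 and 61.4 in HET. HET 2 and HET 3 were the lowest libraries for Col3a1 and Col1a1 alike.

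Type V chains start and limit the width of type I fibrils. Col5a1 was at 22.7, 23.6 and 20.9 FPKM in WT and at 19.8, 19.9 and 20.2 in HET, so that every HET library lay below every WT library. Col5a2 was at 17.98, 17.6 and 17.7 FPKM in WT and at 17.2, 15.4 and 16.0 in HET, again without overlap. Col5a3, the low-level chain of the type, was at 1.52, 1.56 and 2.59 FPKM in WT and at 2.62, 1.21 and 1.14 in HET. WT 3 and HET 1 stood above the other 4 libraries there. Col27a1, a fibrillar collagen of cartilage, was at 48.8, 44.4 and 52.7 FPKM in WT and at 51.5, 43.8 and 48.6 in HET, and Col24a1 lay between 2.28 and 3.47 FPKM in the 6 libraries.

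Among the 9 FACIT genes, the chains of type IX, which decorate type II fibrils, were together more abundant than Col2a1 in WT. Col9a2 was at 755, 784 and 844 FPKM in WT and at 805, 669.7 and 725 in HET. Col9a1 was at 449.8, 467 and 488 FPKM in WT and at 491, 428 and 466 in HET. Col9a3 was at 342, 386 and 461 FPKM in WT and at 450.2, 332 and 377 in HET. All 3 genes had WT 3 and HET 1 as their highest libraries and HET 2 as their lowest. The whole FACIT class summed to 1714 ± 125 FPKM in WT and 1634 ± 158 in HET.

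The other FACIT genes were lower. Col16a1 was at 33.4, 34.1 and 37.5 FPKM in WT and at 33.4, 31.7 and 36.7 in HET. Col12a1, a collagen on type I fibrils of dense tissue, was at 4.91, 3.92 and 2.84 FPKM in WT and at 2.15, 3.84 and 3.63 in HET, with the groups overlapping. Col14a1 lay between 11.1 and 13.7 FPKM in the 6 libraries, Col20a1 between 1.85 and 3.05 and Col22a1 between 0.96 and 1.31. Col19a1 lay between 0.04 and 0.13.

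In the basement membrane class, Col4a1 and Col4a2, whose chains form the type IV network of nearly every basement membrane, held most of the message. Col4a1 was at 64.2, 62.0 and 60.2 FPKM in WT and at 54.2, 53.5 and 60.5 in HET. Col4a2 was at 55.2, 54.5 and 54.3 FPKM in WT and at 47.7, 49.1 and 55.1 in HET. In both genes HET 3 reached the WT range while HET 1 and HET 2 lay below it. Col4a5, on the X chromosome, was at 18.8, 18.5 and 14.5 FPKM in WT and at 13.8, 20.7 and 18.7 in HET. Col4a3, Col4a4 and Col4a6, whose chains join that of Col4a5 in specialised basement membranes, were far lower. Col4a3, Col4a4 and Col4a5 are the genes of Alport syndrome, which affects kidney and hearing.

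Col4a3 was at 1.75, 2.0 and 1.39 FPKM in WT and at 1.00, 2.68 and 1.86 in HET. Col4a6 was at 1.42, 1.77 and 1.38 FPKM in WT and at 0.98, 1.97 and 1.89 in HET. Col4a3, Col4a4, Col4a5 and Col4a6 had the same library pattern, with HET 1 and WT 3 below the other 4 libraries and HET 2 the highest. Exons of Col4a3 share 5.65% of their length with another annotated gene, and the sources used here do not say whether counting used strand. Fragments of overlapping genes may therefore not be told apart, which applies also to Col9a3 (6.07%).

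Col4a4 was the collagen gene with values in all 9 libraries. It was at 2.59, 2.96 and 2.46 FPKM in WT, at 1.87, 3.48 and 2.94 in HET, and at 2.0, 1.96 and 1.06 in HOM, on between 177 and 643 recovered fragments per library. All 3 HOM libraries lay below all 3 WT libraries, which listing required, while HET 1 lay below HOM 1 and HOM 2. The HOM mean was 62.7% of WT (exact permutation p = 0.1) and 60.6% of HET (exact permutation p = 0.3, two-sided, n = 3 each). On the log2(FPKM + 1) scale, Col4a4 was lower in HOM than in WT by -0.48 (SE 0.16, limma adjusted p = 0.0286), adjusted over 1109 genes chosen for a difference between these groups. Of those 1109 genes 65.4% were called lower, so the call says little about Col4a4 beyond its being listed.

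Against HET the difference of Col4a4 was -0.49 (SE 0.22, limma adjusted p = 0.106), short of the threshold, where 36.3% of 1090 genes were called lower. Among the alternative runs only leaving out HET 1 gave a call, at -0.67 (adjusted p = 0.0430). Other single libraries moved it the other way, to -0.35 without HET 2 (0.258) and -0.31 without HOM 3 (0.2545). Against WT the call was lost when any WT library was left out (adjusted p 0.0556 to 0.0861) and under both scalings of the libraries (0.0820 with median-ratio and 0.157 with upper-quartile factors). Both HOM comparisons use the same HOM libraries. In bulk tissue, fewer cells of a type and less RNA per cell cannot be told apart.

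**Figure D2:**
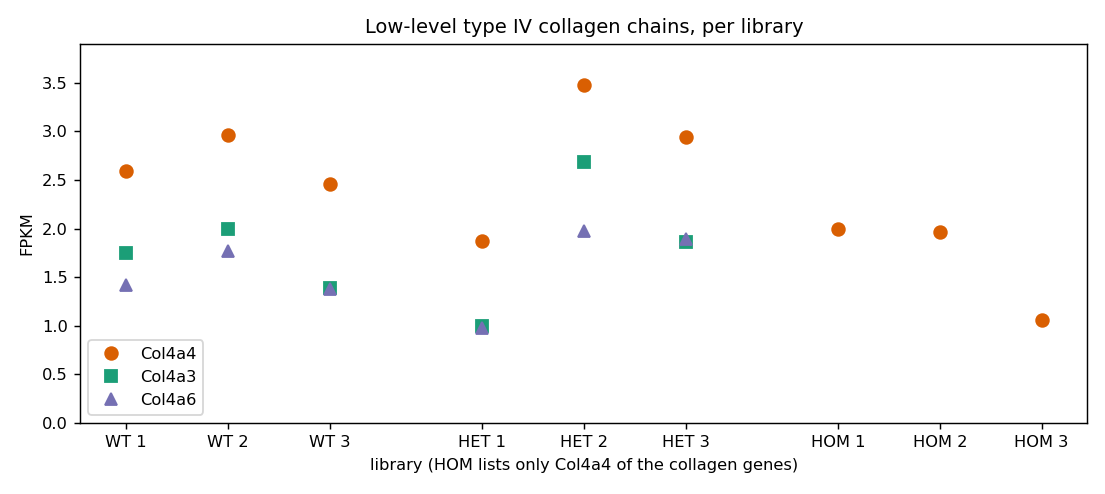
FPKM of Col4a4, Col4a3 and Col4a6 in each library; each point is a library, and HOM lists only Col4a4 among them. Col4a4 lies between 1.06 and 2.0 FPKM in HOM and between 2.46 and 2.96 in WT, and HET 1, at 1.87, lies within the HOM range.

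The multiplexins Col18a1 and Col15a1 bind basement membranes, and Col18a1 yields the fragment endostatin. Col18a1 was the sixth highest collagen gene, at 137, 130.5 and 128 FPKM in WT and at 123, 119 and 126 in HET, without overlap. Col15a1 was at 19.1, 19.9 and 15.5 FPKM in WT and at 13.0, 19.5 and 16.2 in HET, with overlap. Col26a1, a secreted collagen of the remaining class, was at 21.4, 22.1 and 20.9 FPKM in WT and at 20.8, 18.5 and 19.4 in HET. Its groups did not overlap, but WT 3 and HET 1 differed by little. Col7a1, the chain of anchoring fibrils of skin, lay between 1.26 and 2.06 FPKM.

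Type VI collagen, a microfibril around many cell types, is built from a chain of Col6a1, a chain of Col6a2 and another, longer chain. Col6a1 was at 16.7, 15.5 and 14.5 FPKM in WT and at 14.3, 12.6 and 13.1 in HET, without overlap. Col6a2 was at 9.40, 9.37 and 9.01 FPKM in WT and at 8.79, 8.36 and 8.34 in HET, also without overlap. Of the longer chains, Col6a3 was at 6.40, 6.89 and 5.75 FPKM in WT and at 6.48, 6.59 and 7.10 in HET, and Col6a6 was at 5.65, 7.95 and 4.75 in WT and at 3.64, 5.62 and 3.51 in HET. Both overlapped. The whole type VI class summed to 37.3 ± 2.99 FPKM in WT against 32.9 ± 0.676 in HET. Col6a5 and Col6a4 were at or below 0.10 FPKM in every library.

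Short-chain network collagens line vessels and sheets of specialised matrix. Col8a1 was at 10.04, 10.2 and 7.16 FPKM in WT and at 6.99, 10.3 and 10.1 in HET. Col8a2 was at 8.23, 8.81 and 8.07 FPKM in WT and at 7.57, 8.52 and 8.51 in HET. Col10a1, the collagen that marks hypertrophic cartilage, was at most at 0.07 FPKM and was listed at 0 in WT 3, where 3 fragments would have given 0.0633 FPKM. Among the transmembrane collagens, Col23a1 was at 6.51, 6.37 and 7.20 FPKM in WT and at 6.48, 5.22 and 4.96 in HET, Col25a1 lay between 4.02 and 6.02, and Col13a1 between 1.43 and 2.01. Col17a1, the collagen of hemidesmosomes, stayed at or below 0.16.

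The markers of the tissue framed these levels. Tecta, which encodes a main protein of the tectorial membrane, was between 867 and 1078 FPKM, and the tectorial membrane list summed to between 2378 and 3270 in the 6 libraries. Ceacam16, of the same list, was at most at 0.42 FPKM. Acan, the proteoglycan that defines cartilage matrix, was at most at 0.86 FPKM, and Matn3, Comp and Hapln1 were under 1 FPKM in every WT and HET library, as was Col10a1. Of the other 4 cartilage markers, Snorc was at 0.45 to 1.51 FPKM, Sox9 at 38.8 to 48.8, Matn1 at 56.7 to 77.1 and Cnmd at 583 to 704. The list of 8 summed to between 692 and 826.5 FPKM. Which tissue the collagen message came from was not tested. Osteocalcin genes of mature bone, Bglap and Bglap2, were also under 1. Of the 6 skeletal muscle markers 5 were under 1 FPKM throughout.

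The comparison of HET with WT asks what follows for these transcripts from 1 mutant Pou4f3 allele. No collagen gene was called: 0 of 38 tested passed limma's adjusted threshold of 0.05, where 0 of 15391 genes (0.0%) passed. At an unadjusted limma p under 0.05 there was 1 collagen gene lower, Col6a1, against 0.845% of all genes, and 0 higher, against 0.884% (1.73% in either direction). The change of Col6a1 was -0.21 (SE 0.09), with an exact permutation p of 0.1 and a limma adjusted p of 0.9998. With either other scaling of the libraries 0 collagen genes were lower at that unadjusted threshold. Of the 38 changes 28 were below 0 (73.7%), against 49.6% of all genes, and their median was -0.06 against 0.00 for all genes. The counts are of genes that share libraries, so they are a description.

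The sizes were small. The 38 changes lay between -0.68 and 0.13 on the log2(FPKM + 1) scale, 36 of them within 0.25 of 0. On that scale the 95% interval stayed within 1 unit of 0 in 37 genes and within 1.5-fold of FPKM + 1 in 33. These limits do not bound the change in FPKM itself, which can be larger in genes of a few FPKM or less. Col1a1 had the largest change, -0.68 (95% interval -1.40 to 0.03), from 11.9 ± 5.09 FPKM in WT to 6.80 ± 1.84 in HET, with an exact permutation p of 0.2 (n = 3 each). WT 2 made much of it, since without WT 2 the change was -0.38. It was larger at -0.93 without WT 1 and at -0.86 without HET 1, and was not called in either run. Col6a6 (-0.43), Col23a1 (-0.24), Col12a1 (-0.22), Col3a1 (-0.19), Col15a1 (-0.16), Col5a1 (-0.16), Col4a1 (-0.15) and Col5a3 (-0.15) followed, none of them called. Several of these rested on single libraries. Without HET 1, Col12a1 and Col15a1 were both at -0.02, Col3a1 at -0.32 and Col5a3 at -0.39. Without WT 1, Col12a1 was at -0.07 and Col5a3 at -0.23. Without WT 2, Col6a6 was at -0.26, Col15a1 at -0.10 and Col5a3 at -0.22. Without WT 3, Col12a1 was at -0.38, Col15a1 at -0.27 and Col5a3 at 0.02. Without HET 2, Col12a1 was at -0.33, Col15a1 at -0.30, Col3a1 at -0.12 and Col5a3 at -0.03, and without HET 3, Col3a1 was at -0.12 and Col5a3 at -0.01. The interval for Col2a1 ran from -0.39 to 0.29, and that for Col9a2 from -0.42 to 0.18.

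**Figure D3:**
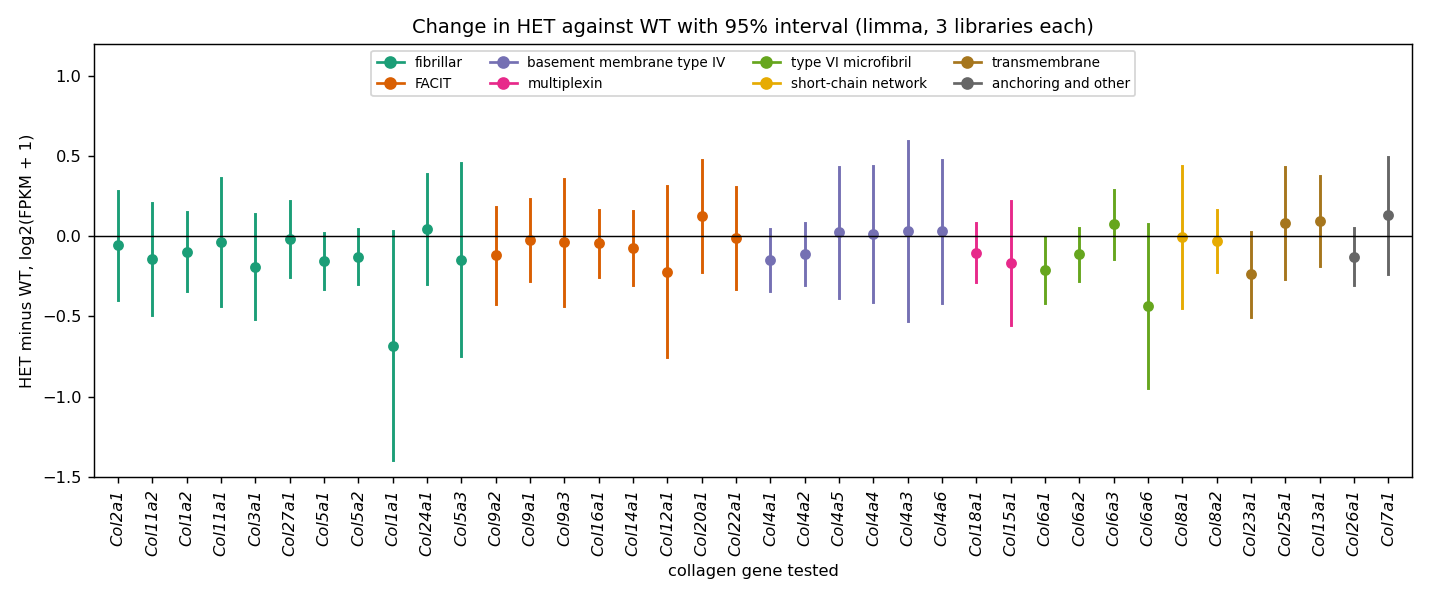
Change in HET against WT on the log2(FPKM + 1) scale for the 38 collagen genes tested, coloured by class; points are estimates and bars are 95% intervals from limma with 3 libraries a group. The interval of Col6a1 alone does not include 0 before adjustment, and Col1a1 has the widest interval, from -1.40 to 0.03.

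In 6 of the 38 genes (15.8%) every HET library lay below every WT library, against 3.12% of all genes; in 0 of 38 every HET library lay above, against 2.82%. The 6 were Col5a1, Col5a2, Col6a1, Col6a2, Col18a1 and Col26a1. Their separation was narrow: median-ratio scaling left 4 of them, without Col18a1 and Col26a1, where 3.23% of all genes were wholly lower. Upper-quartile scaling left 0, where 2.24% of all genes were wholly lower. The HET means of these genes were between 85.7% (Col6a1) and 93.0% (Col18a1) of WT. Markers of endothelium and pericytes, cells that rest on or lie in basement membrane, summed to between 54.9 and 60.8 FPKM in WT and between 49.5 and 58.6 in HET, and all 7 had changes below 0 (median -0.09). Their part in the collagen values was not tested.

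The bone markers are given beside Col1a1. The bone list of 10 genes summed to 58.9, 89.7 and 68.5 FPKM in WT 1 to 3 and to 82.98, 53.8 and 47.9 in HET 1 to 3. WT 2 had the highest sum and HET 2 and HET 3 the lowest, as for Col1a1. The sum was mostly Spp1 and Ctsk, and single markers did not all follow it: Sp7 was highest in HET 1 (1.88), Alpl in WT 1 (2.05), and Ibsp was lowest in HET 1 (1.51). All 8 bone markers tested had changes below 0 (median -0.18). Bglap and Bglap2 were under 1 FPKM in every library. Schwann cell markers, 6 of 6 tested, also had changes below 0 (median -0.34), with HET 2 and HET 3 lowest. Erythroid markers (4 of 4 tested, median -0.30) and macrophage markers (5 of 5, median -0.10) did so too. Below 0 were 3 of 4 cartilage, 3 of 7 otic mesenchyme and fibrocyte, 3 of 8 hair cell, 3 of 8 supporting cell and 0 of 5 tectorial membrane markers tested. The part of any of these lists in the result was not tested.

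Among the 6 collagen genes below the level needed for testing, 3 had HET and WT libraries that did not overlap, against 4.92% of the 12976 untested genes in the same range of means. They were picked after their values were seen. Col28a1, a von Willebrand domain collagen known from peripheral nerve, was at 0.54, 0.91 and 0.90 FPKM in WT and at 0.49, 0.50 and 0.47 in HET, on 36 to 67 recovered fragments per library. Its change without a filter was -0.26 (SE 0.12), not called. Col19a1 was at 0.04, 0.05 and 0.04 FPKM in WT and at 0.07, 0.13 and 0.10 in HET, and Col17a1 at 0.08, 0.08 and 0.05 in WT and at 0.11, 0.10 and 0.16 in HET. These rest on 4 to 16 fragments per library, and neither was called without a filter.

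The larger differences among libraries did not follow the genotype. In 8 of the 38 genes (21.1%) HET 1 and WT 3 both lay above the other 4 libraries, against 31.4% of all genes. These were Col2a1, Col3a1, Col5a3, Col9a1, Col9a2, Col9a3, Col20a1 and Col27a1. In 12 genes (31.6%) both lay below the other 4, against 25.2% of all genes. These were Col4a3, Col4a4, Col4a5, Col4a6, Col8a1, Col8a2, Col11a1, Col11a2, Col12a1, Col14a1, Col15a1 and Col25a1. Near the extremes, Col5a3 averaged 192% and Col9a3 127% of the other 4 libraries, and Col4a3 averaged 57.7% and Col11a1 75.03%. These libraries were picked after the values were seen, so the counts are a description.

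**Figure D4:**
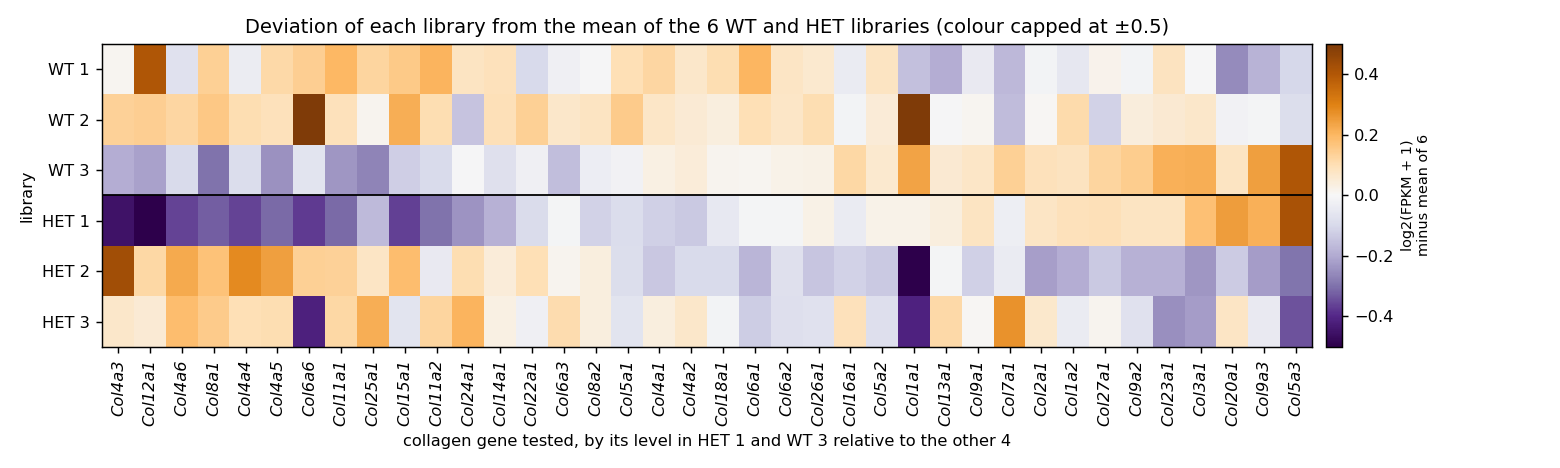
Deviation of each WT and HET library (rows) from the mean of the 6 on the log2(FPKM + 1) scale, for the 38 collagen genes tested (columns), with colour capped at 0.5. WT 3 and HET 1 are low on the left, where Col4a3 averages 57.7% of the other libraries, and high on the right, where Col5a3 averages 192%.

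The split is not particular to collagens, since HET 1 and WT 3 lay above the others in 31.4% of all genes and below in 25.2%. Collagens that share a fibril fell on both sides of it. The type II and IX genes were highest in HET 1 and WT 3, while the type XI genes were lowest there. For Col2a1 the margin was slight, with HET 1 at 1235 FPKM, HET 3 at 1226 and HET 2 low at 1007. Some markers also differed in these libraries. The tectorial membrane list summed to 2378 FPKM in HET 1 and 2620 in WT 3 and to between 2881 and 3270 in the other 4, although Tectb in WT 3 (1526) was above WT 1 (1522). The Schwann cell list was at 404 and 374 FPKM there, its highest sums. The otic mesenchyme and fibrocyte list had no common direction. Its sum, 3042 and 2685 FPKM there, was mostly Otor (2611 and 2263), while Pou3f4 was at its lowest in HET 1 and WT 3 (53.1 and 61.97), as was Tbx18 (50.6 and 46.7). Their part in the collagen pattern was not tested.

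Without HET 1 and WT 3, 0 of the 38 collagen genes passed limma's adjusted threshold. At an unadjusted p under 0.05 there were then 8 lower and 0 higher, against 8.62% of all genes lower and 7.25% higher. The 8 genes were Col1a1, Col3a1, Col5a1, Col5a2, Col6a1, Col6a2, Col23a1 and Col26a1, which are 21.1% of those tested. The median of the 38 changes was then -0.07, against 0.01 over all genes. This removal was chosen after the values were seen.

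Ratios between chains that assemble together show which chains kept step within a library. Col4a1 over Col4a2 was the steadiest, at 1.14 ± 0.0277 in WT and 1.11 ± 0.0249 in HET (n = 3 each), with the highest of the 6 libraries at 1.07 times the lowest. Col9a1 over Col9a2 averaged 0.590 ± 0.0105 in WT against 0.630 ± 0.0181 in HET, and Col5a1 over Col5a2 averaged 1.26 ± 0.0800 and 1.24 ± 0.0762. Col4a3 over Col4a4, with starts 71 bases apart, was less steady at 0.639 ± 0.0639 and 0.646 ± 0.118. Col4a5 over Col4a6 was at 11.4 ± 1.61 and 11.5 ± 2.24. Col1a1 over Col1a2 averaged 0.106 ± 0.0404 in WT against 0.0646 ± 0.0112 in HET and varied by 2.70 times between libraries, the most among the 12 ratios.

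HET and WT did not overlap in 2 of the 12 ratios. Col6a3 over Col6a1 was at 0.384, 0.445 and 0.398 in WT and at 0.454, 0.524 and 0.543 in HET. Col9a1 over Col9a2 was at 0.596, 0.596 and 0.578 in WT and at 0.6095, 0.638 and 0.643 in HET. Both were higher in every HET library, and neither was tested. No share over other gene pairs was computed, so the count of such ratios is a description. Col6a1 was itself lower in every HET library, while Col6a3 overlapped. Col2a1 over Col11a1 ranged from 10.98 to 18.4, with HET 1 and WT 3 highest, and Col11a1 over Col11a2 from 0.255 to 0.320. Col6a1 over Col6a2 was at 1.68 ± 0.0865 and 1.56 ± 0.0588, Col8a1 over Col8a2 at 1.09 ± 0.177 and 1.11 ± 0.160, and Col9a3 over Col9a2 at 0.497 ± 0.0462 and 0.525 ± 0.0321.

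**Figure D5:**
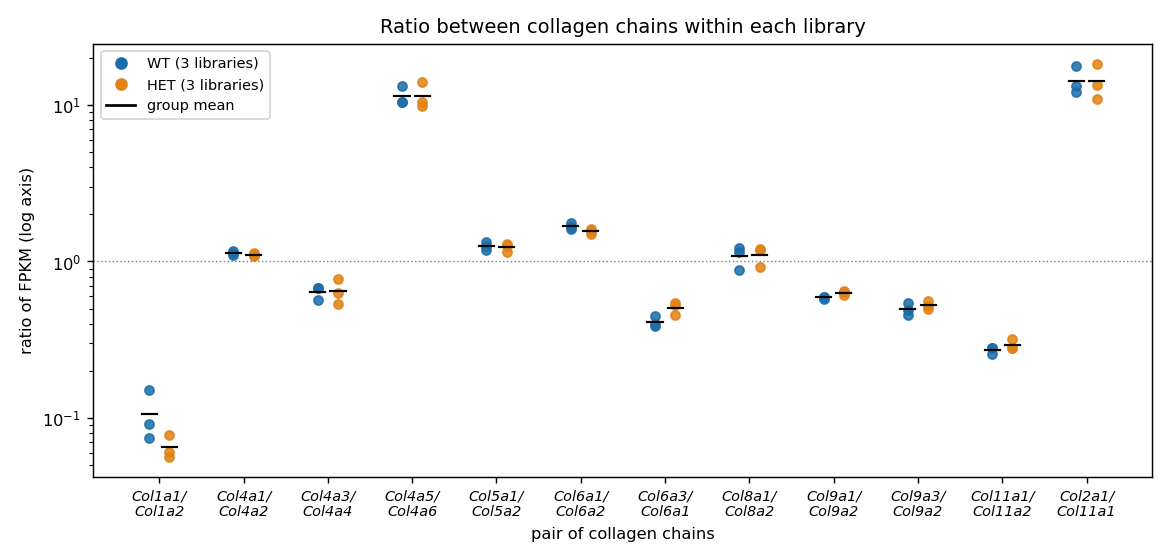
Ratio of FPKM between 12 pairs of collagen chains (log axis); each point is a WT or HET library and each black line a group mean. Col4a1 over Col4a2 lies between 1.09 and 1.16 in all 6 libraries, while Col1a1 over Col1a2 lies between 0.0562 and 0.152.

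Genes that modify, export, cleave, crosslink, bind or degrade collagen were taken as a list of 62, of which 53 were tested in HET against WT. None was called (0 of 53), as for all genes. Of the 53 changes 41 were below 0, against 49.6% of all genes, and their median was -0.09 against 0.00 for all genes. Where 1.73% of all genes had an unadjusted limma p under 0.05, the protease gene Mmp9 alone did so here. It was at 2.37, 4.83 and 1.06 FPKM in WT and at 0.74, 0.83 and 0.85 in HET, without overlap. The most abundant were Sparc, a collagen-binding matrix protein, Epyc, Serpinh1, Lum and P4hb. Serpinh1, the chaperone dedicated to collagen folding, was at 384, 402 and 485 FPKM in WT and at 376, 365 and 326 in HET (-0.25, limma adjusted p = 0.9998). Its HET libraries all lay below its WT libraries. The same held for Mmp9, Mmp2, Fkbp10, P3h1 and Loxl2 among the 53 tested, and none of the 53 showed the reverse. Over all genes tested, 3.12% had every HET library below every WT library. P4hb, a subunit of the enzyme that hydroxylates collagen prolines, averaged 248 ± 4.59 FPKM in WT against 243 ± 12.3 in HET. Sparc averaged 805 ± 58.4 and 719 ± 43.5.

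The HOM files listed 10 of the 62, all of them among the 53 tested, where 7.35% of all genes tested were listed. Genes listed there were chosen for a difference from WT. Among those 10 were small proteoglycans that bind collagen fibrils, 5 of the 10 on the list of such genes: Dcn, Lum, Fmod, Ogn and Epyc. Lum was at 272, 267 and 283 FPKM in WT, at 290, 273 and 255 in HET and at 337, 401 and 367 in HOM. All HOM libraries lay above the others for Lum. Fmod was at 4.73, 4.53 and 4.96 FPKM in WT, at 4.82, 3.91 and 3.89 in HET and at 6.30, 5.54 and 7.63 in HOM, again without overlap. Dcn was at 62.9, 63.96 and 70.3 FPKM in WT, at 77.8, 57.4 and 56.4 in HET and at 75.1, 103 and 91.3 in HOM. Ogn averaged 42.8 ± 4.01 FPKM in WT, 39.5 ± 5.63 in HET and 52.9 ± 1.72 in HOM. HOM was the highest group in each, although HET 1 lay above HOM 1 for Dcn.

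Against HET, the values of these proteoglycan genes in HOM were higher by 0.43 for Lum, 0.49 for Dcn, 0.42 for Ogn, 0.52 for Fmod and 0.52 for Epyc (limma adjusted p from 0.0135 to 0.0484). Of the 1090 genes tested against HET, 485 were called in either direction, 396 of them lower. Against WT the 5 genes were higher by 0.42, 0.44, 0.31, 0.38 and 0.45, in genes listed for that difference. There 1032 of 1109 genes were called in either direction, 725 of them lower. Dcn and Fmod lost their calls against WT without WT 1 (limma adjusted p 0.0540 each) and without WT 2 (0.0530 and 0.0590). All 5 calls against HET were lost without HET 2 and without HET 3, at adjusted p between 0.0624 and 0.1495. Without HOM 1, the calls of Fmod (0.0547) and Epyc (0.0548) were lost, and without HOM 3 those of Epyc (0.0665) and Dcn (0.112). The call of Dcn was also lost without HOM 2 (0.115), with pseudocounts of 0.1 (0.0538) and 0.5 (0.05003), and without the mean-variance trend (0.0563). Their differences were higher still under median-ratio and upper-quartile scaling, where all 5 stayed called against both groups. Over the listed genes tested (1109, 1098 and 1095 in turn) the median difference of HOM from WT was -0.22 as deposited, -0.09 with median-ratio factors and -0.03 with upper-quartile factors.

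The other 5 listed genes differed less from WT, and 4 of them had no direction that held. Plod1 and Colgalt1, which hydroxylate and glycosylate collagen lysines, were at -0.14 each in HOM against WT as deposited, but at 0.08 each under upper-quartile scaling. The export gene Mia3 was at -0.11 and 0.11 by the same values, and the collagen receptor Ddr1 at -0.13 and 0.09. Pcolce2, which enhances procollagen cleavage, was at 0.24 and 0.46. These scaling factors rest on the listed genes, all of which separate HOM from WT as deposited.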

How the data were processed

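RNA-seq values of 9 cochlear libraries were used, 3 each of WT, HET and HOM by sample title. The deposited values are FPKM calculated by the authors, per the file headers, to 2 decimals. The submitters' processing notes name DESeq2 and mm8; no source used here gives the aligner, counter or annotation. Of 51912 identifiers 51633 matched GENCODE M21 (GRCm38), which gave symbols, positions and exon lengths. Depth was recovered as the value that makes low FPKM of genes with up to 600 exon bases whole fragments within 0.1. This held for at least 99.2% of those values in each library. The depths of HOM 1, 2 and 3 rest on only 30, 32 and 35 such values, against 2405 to 2901 in the WT and HET libraries. Counting floors cover counting error only.

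Groups were compared on log2(FPKM + 1) by limma (version 3.58.1; R version 4.3.3), two-sided, with a mean-variance trend. Genes reaching 1 FPKM in 3 of the 6 compared libraries entered, with Benjamini-Hochberg adjustment over all genes tested. In all, 38 of 44 collagen genes passed that filter. The alternatives were other pseudocounts (0.1, 0.5), no filter, both scalings, no trend, a replicate block and leaving out each library. The labels do not say that libraries came from separate animals, so p values measure the spread between these libraries.

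Values in every library are given for the collagen genes listed in HOM, the 15 highest in WT, the 10 with the largest HET change and the chains of each ratio. Collagen-processing genes are named where listed in HOM, at an unadjusted p under 0.05, or among the 5 highest; a few others, and the markers, were named after their values were seen. Members and lists were chosen with earlier results of these data known. Protein features were not computed, since no protein sequences were at hand. The fit was tested on simulated data. Calculations used Python 3.11.15, pandas 2.3.3 and scipy 1.17.1.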

Additional observations from a re-analysis of the deposited data

How the results depend on the processing

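The number of genes called in HET against WT was 0, and 0 to 1 when single libraries were left out; no collagen gene (0) was called under any alternative run. The count of collagen genes lower at an unadjusted p under 0.05 was 1 (0.845% of all genes). It became 2 without a filter, 0 under median-ratio scaling, 0 under upper-quartile scaling, 0 without the trend and 8 without HET 1 and WT 3 together (8.62% of all genes). When single libraries were left out it was 0 to 6 (6 without HET 1, 3 without WT 3). The share of all genes is not given for those other runs, so their counts cannot be set against it. Collagen genes with every HET below every WT library were 6 (3.12% of all genes), then 4 under median-ratio scaling (3.23%) and 0 under upper-quartile scaling (2.24%). They were 15 without HET 1 and WT 3 together, where 23.64% of all genes met the rule. When single libraries were left out they were 7 to 11 (4.98% to 19.5% of all genes, the highest count and share without HET 1). Collagen genes wholly above were 0, then 1 under upper-quartile scaling (4.35% of all genes), 2 without HET 1 (19.75%), 1 without WT 2 (4.83%), 1 without WT 3 (8.95%) and 3 without both (26.61%). Changes below 0 were 28 of 38 (49.6% of all genes), and 24 to 32 over the alternatives. The share of all genes then ran from 41.25% under upper-quartile scaling to 53.36% without WT 1. The change of Col5a3 was -0.39 to 0.021 when single libraries were left out, reversed at 0.0211 without WT 3. Col4a4 in HOM against WT was -0.48, weaker at -0.38 with median-ratio factors and -0.32 with upper-quartile factors, and -0.57 to -0.30 when single libraries were left out; against HET it was -0.49, and -0.67 to -0.31. The genes called in HOM against WT were 1032, then 623 under upper-quartile scaling and 588 to 864 when single libraries were left out (588, 594 and 672 without WT 1, 2 and 3). For HOM against HET they were 485, and 116 to 431 (142 without HET 2, 116 without HET 3). Ratios of FPKM + 1 moved Col4a3 over Col4a4 to 0.738, Col4a5 over Col4a6 to 7.24 and Col6a3 over Col6a1 to 0.445 in WT. The HET sum of all collagen genes was 94.9% of WT, and 92.4% to 98.8% when single libraries were left out. Replicate numbers did not pair the samples: deviations of same-numbered WT and HET libraries correlated at -0.519, 0.286 and -0.471, WT and HOM at 0.247, 0.094 and 0.275, and HET and HOM at -0.324, 0.089 and -0.158, and not every library correlated best with its own number. With a replicate block the genes called in HOM against HET were 304. No collagen call changed; those of Dcn, Lum and Epyc in HOM against HET were lost (adjusted p 0.1104, 0.05495 and 0.08512). Depth limits genes under 1 FPKM, at 0 to 67 fragments per library, and small changes of low genes are understated by the pseudocount of 1.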
